A study of Homo sapiens with 10 samples.

Results

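The genes described here build the actin cytoskeleton and the focal adhesions of a cell, and were read from Affymetrix hgu133a arrays of MDA-MB-435, an established human melanoma cell line. A list of 45 genes was given by name: adhesion scaffolds, actins, crosslinkers, tropomyosins, myosin II chains, actin binders of the calponin type, turnover and capping factors, subunits of the Arp2/3 complex, and membrane linkers. Of these 45 genes, 38 had a probe set annotated with a single symbol, among 11963 such genes on the array. The other 7 (FLNA, FLNC, TPM3, ACTG1, ACTR2, BCAR1 and LIMS1) had no single-symbol probe set in the annotation used here and were not analysed here. For ACTG1, 8 probe sets carried its symbol together with ACTB. The 38 genes had 81 probe sets, of which 3 are ACTB control probe sets that were kept out of the tests. Among the other 78, 62 probe sets of 34 genes passed the filter on low values, which asked for a value of at least 7.3 on the log2 scale on 2 or more of the 10 arrays. None of the 62 passed through 1 group only. The genes TPM2, MYL9, TAGLN and WASL had no probe set that passed.

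There were 5 groups of 2 arrays. Untreated MDA-MB-435 cells were the reference, and cells of the same line were given hepatocyte growth factor (HGF), the ligand of the receptor tyrosine kinase MET, for 1 h, 6 h or 24 h. The fifth group was transduced with integrin beta 4 (ITGB4), the partner of integrin alpha 6 in hemidesmosomes, and received no HGF according to the labels. The dose of HGF, the vector and promoter of the transgene, and whether the transduced cells were a clone or a pool are not given in the sources used here. No mock-transduced group is among the 5, although the descriptions of both ITGB4 arrays also hold the word "Mock", so that the effect of transduction itself cannot be told apart from that of ITGB4. The 5 groups hold no untreated arrays matched to each HGF time. Time in culture and time with HGF thus cannot be told apart. The study describes the 2 arrays of a group as biological duplicates.

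Focal adhesions are the sites where integrins, held by extracellular matrix, are joined to bundles of actin inside the cell. Talin and kindlin bind the integrin tail, vinculin, paxillin and zyxin join the growing site, and alpha-actinin, filamin, tropomyosin and myosin II turn the attached filaments into contractile stress fibers. At the front of a moving cell the Arp2/3 complex starts branched filaments, capping protein stops their growth, and cofilin and profilin recycle the subunits. HGF is known as scatter factor because it makes many cell types detach from each other and move, and genes of actin and its partners are classical targets of serum response factor (SRF), which binds the CArG box.

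On the log2 scale, ITGB4 itself lay between 10.29 and 13.23 on the transduced arrays and at 6.86 or below on the other 8 for the 3 of its 4 probe sets that passed the filter. MET, the receptor of HGF, was read between 7.51 and 9.52 on the 3 of its 4 probe sets that passed. Melanocyte markers passed the filter for 15 of 18 genes on the array, epithelial markers for 4 of 19, fibroblast markers for 5 of 14 and smooth muscle markers for 2 of 8. In RNA of a whole culture, fewer cells with a transcript and less of it per cell cannot be told apart.

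Zyxin (ZYX), paxillin (PXN), tropomyosin 4 (TPM4) and alpha-actinin 1 (ACTN1) are shown with the 250 bases before a RefSeq transcript start (GRCh38.p14). They serve as examples of the 2 kinds of promoter letters searched. ZYX and PXN passed the test below at 6 h of HGF against untreated cells, TPM4 and ACTN1 only between HGF time points. For TPM4 and ACTN1 the window with a CArG box was chosen. ZYX lies on the plus strand at chr7:143381095-143381344, PXN on the minus strand at chr12:120265731-120265980, TPM4 on the plus strand at chr19:16067288-16067537, and ACTN1 on the minus strand at chr14:68977567-68977816. Capitals mark a CArG box or a GC box (GGGCGG), each on either strand, and no CArG box overlapped a GC box.
ZYX: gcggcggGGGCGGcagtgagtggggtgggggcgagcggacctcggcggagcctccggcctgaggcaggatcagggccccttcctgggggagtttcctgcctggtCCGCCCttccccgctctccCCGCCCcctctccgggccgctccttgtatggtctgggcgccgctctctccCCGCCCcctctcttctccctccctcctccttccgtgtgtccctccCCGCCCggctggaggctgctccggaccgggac
PXN: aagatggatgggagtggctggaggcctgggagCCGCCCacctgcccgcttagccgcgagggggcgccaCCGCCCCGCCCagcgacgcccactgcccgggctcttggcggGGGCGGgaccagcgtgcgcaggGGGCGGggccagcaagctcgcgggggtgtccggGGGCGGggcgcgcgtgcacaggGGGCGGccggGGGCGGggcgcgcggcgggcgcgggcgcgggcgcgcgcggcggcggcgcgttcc
TPM4: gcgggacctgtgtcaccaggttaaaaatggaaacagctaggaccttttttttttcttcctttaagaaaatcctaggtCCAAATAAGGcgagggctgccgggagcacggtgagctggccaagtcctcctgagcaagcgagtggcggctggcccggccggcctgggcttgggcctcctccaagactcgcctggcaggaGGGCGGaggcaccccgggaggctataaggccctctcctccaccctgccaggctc
ACTN1: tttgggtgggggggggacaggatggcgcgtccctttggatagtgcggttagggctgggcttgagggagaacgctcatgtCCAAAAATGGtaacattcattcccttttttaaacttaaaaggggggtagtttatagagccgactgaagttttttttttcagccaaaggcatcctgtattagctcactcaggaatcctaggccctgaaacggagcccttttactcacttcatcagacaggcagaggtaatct
The ZYX window held 5 GC boxes and the PXN window 8, where neighbouring matches may share a base, and neither held a CArG box. A second PXN window, before another start, held neither motif. The TPM4 window held 1 GC box and 1 CArG box starting 173 bases before the transcript start, and the ACTN1 window held 1 CArG box starting 171 bases before it. Of the 4 windows of ACTN1, 1 held a CArG box and 2 held a GC box, and of the 3 of TPM4, 1 held a CArG box and all 3 a GC box. A window was available for 39 member genes, and none for ARPC1B, PTK2, PARVA, ACTB, MYL9 and TAGLN. A CArG box was found in 1.16% of all 35116 windows and in 5 of the 65 windows of the 39 genes (7.69%). These were windows of ACTG1, ACTN1, CNN2, FLNA and TPM4, of which ACTG1 and FLNA were not analysed on the array. A GC box was found in 42.6% of all windows and in 49 of the 65 (75.4%). These are letter matches and say nothing of binding in these cells.

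ZYX and PXN were higher at 6 h of HGF than in untreated cells, and CALD1 and ENAH were lower at 1 h, by limma with a Benjamini-Hochberg adjusted p under 0.05 over 10176 probe sets. Against untreated cells, 4 of the 62 member probe sets were higher at 6 h (6.45%, against 3.88% of all probe sets called higher) and 0 lower (against 2.33%). The 4 belonged to ZYX and PXN, and 1 or 0 were called without either untreated or either HGF 6 h array. After 1 h, 2 probe sets were lower (3.23%, against 5.09% of all), those of caldesmon (CALD1) and ENAH, and 0 were higher (against 0.58%). From 1 h to 6 h, 9 probe sets of 6 genes rose (14.5%, against 11.9% of all) and 0 fell (against 6.4%). From 6 h to 24 h, 7 probe sets of 5 genes fell (11.3%, against 12.5% of all) and 0 rose (against 6.95%). The shares of members called in the direction of change were thus near those of all probe sets in the last 2 comparisons. Those against untreated cells rest on 4 probe sets at 6 h and 2 at 1 h, too few to set the members apart. At an unadjusted p under 0.05 the share was 25.8% of members and 26.5% of all at 1 h, and 22.6% and 23.2% at 6 h. It was 22.6% and 35.2% from 1 h to 6 h, and 29% and 34% from 6 h to 24 h. The median log2 difference of the members was 0.098 at 6 h against untreated (0.012 over all probe sets) and 0.022 at 1 h (0.056 over all). The 6 h median was 0.055 without the filter and 0.158 without untreated replicate 2, and the 1 h median turned to -0.039 with cyclic loess and without untreated replicate 1. The members' median was 0.098 from 1 h to 6 h (-0.018 over all) and -0.177 from 6 h to 24 h (-0.011 over all). The first of these was 0.054 without the filter, 0.060 without HGF 1 h replicate 1 and 0.046 when HGF 6 h replicate 2 was left out. The second was -0.101 without the filter and -0.092 without HGF 24 h replicate 1, and 4 member probe sets were called without that array. The 3' minus 5' difference of the ACTB control probe sets was -0.09 on that array and -0.57 to -0.27 on the other 9, and its part in this median was not tested. The comparisons with untreated cells share the untreated arrays, and neighbouring time comparisons share the 6 h arrays.

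**Figure D1:**
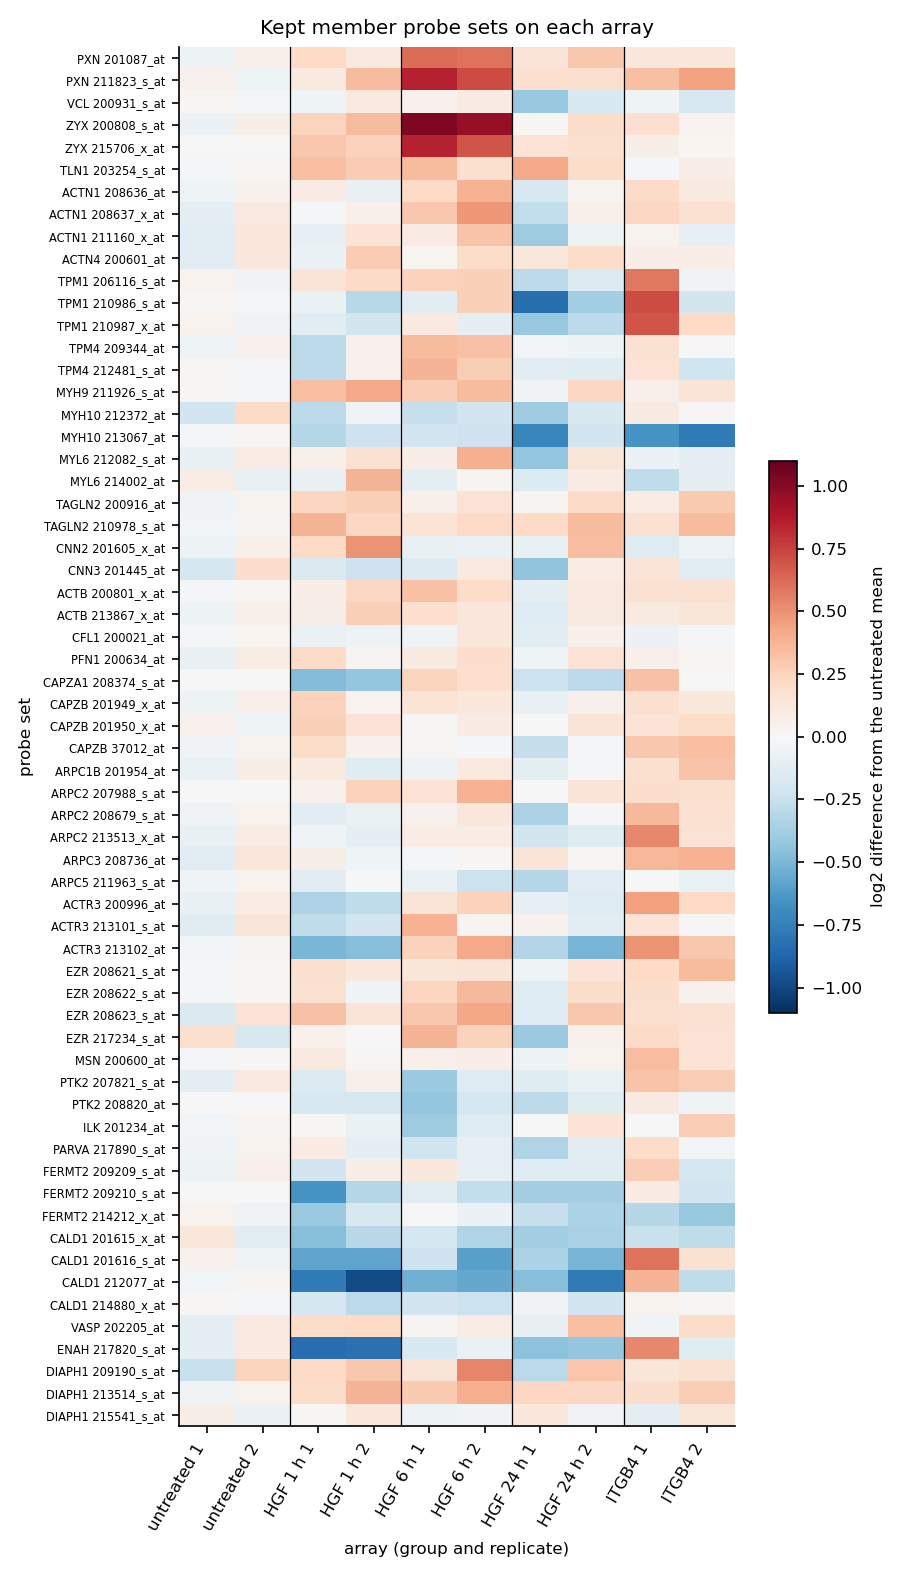
Log2 difference of each kept member probe set (rows, in the order of the gene list) on each array (columns) from the mean of the 2 untreated arrays, with the colour scale ending at 1.1 either way. The ZYX and PXN rows are highest on the 2 HGF 6 h arrays, and the ENAH row is lowest on the 2 HGF 1 h arrays.

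The adhesion scaffolds held the largest rise. Zyxin, a LIM domain protein of mature adhesions and stress fibers, was read on probe set 200808_s_at at 8.92 and 9.05 in untreated cells, 9.23 and 9.33 after 1 h, 10.01 and 9.94 after 6 h, 9.00 and 9.18 after 24 h, with 9.17 and 9.02 in ITGB4 cells (RMA values, log2). Both 6 h arrays lay above the other 8, and the 24 h arrays overlapped the untreated ones. The rise over untreated at 6 h was 0.99 (95% interval 0.72 to 1.27, SE 0.12, a 1.99-fold difference, limma adjusted p = 0.00362), and the 1 h difference of 0.30 did not pass (limma adjusted p = 0.161). From 1 h to 6 h zyxin rose by 0.70 (limma adjusted p = 0.00683), and from 6 h to 24 h it fell by 0.89 (limma adjusted p = 0.00192). The second probe set, 215706_x_at, of a kind whose probes can match other transcripts, showed the same order with smaller differences of 0.77, 0.50 and -0.61 (limma adjusted p = 0.00639, 0.0148 and 0.00545). Without HGF 6 h replicate 2 the 6 h rise on 200808_s_at was 1.03 with a limma adjusted p of 0.0511, and it passed without each of the other arrays. On 215706_x_at that call was lost without either untreated or either HGF 6 h array (limma adjusted p = 0.0564 to 0.0824). Both calls from 1 h to 6 h were lost without HGF 1 h replicate 1 or either HGF 6 h array. The fall to 24 h on 200808_s_at passed without each array in turn, and that on 215706_x_at was lost without HGF 6 h replicate 1 (limma adjusted p = 0.0565).

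Paxillin, the adapter that docks FAK and Crk-type signalling proteins at adhesions, moved with the same timing. On 211823_s_at it was 7.48 and 7.39 in untreated cells, 7.54 and 7.78 after 1 h, 8.28 and 8.15 after 6 h, 7.61 and 7.62 after 24 h, with 7.77 and 7.88 in ITGB4 cells. The 6 h arrays again lay above all others, and the ITGB4 arrays came next, not apart from the higher 1 h array. The 6 h rise was 0.79 (95% interval 0.51 to 1.06, SE 0.12, 1.73-fold, limma adjusted p = 0.00859), and 201087_at gave 0.60 (0.34 to 0.86, limma adjusted p = 0.0177). Between 1 h and 6 h the 2 probe sets rose by 0.56 and 0.44 (limma adjusted p = 0.0141 and 0.026), and between 6 h and 24 h they changed by -0.60 and -0.38 (limma adjusted p = 0.00871 and 0.042). In ITGB4 cells the difference of 0.39 on 211823_s_at did not pass (limma adjusted p = 0.566). The 6 h calls against untreated on both probe sets were lost without either untreated or either HGF 6 h array. The call from 1 h to 6 h was lost on both without HGF 1 h replicate 1 or either HGF 6 h array, and on 201087_at also without HGF 1 h replicate 2. The fall to 24 h was lost on 211823_s_at without HGF 6 h replicate 1 (limma adjusted p = 0.0768), and on 201087_at without any 1 of the untreated, HGF 6 h or HGF 24 h arrays, without the filter, with median centring, with the 2 compared groups fitted alone and with the spread not moderated.

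**Figure D2:**
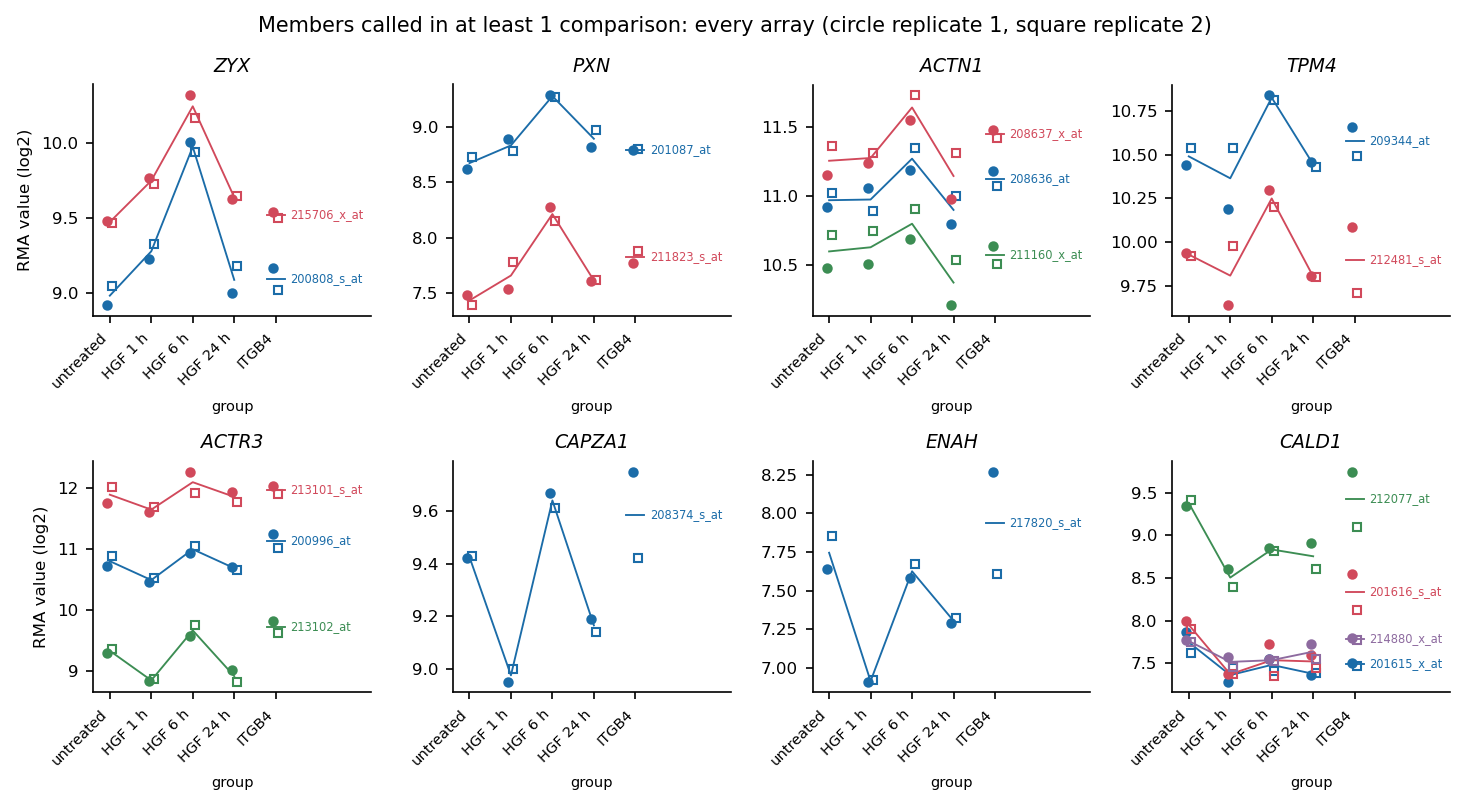
RMA values (log2, vertical axis) of the members called in at least 1 comparison on each of the 10 arrays, by group (horizontal axis), with a line through the group means of the time course and a bar at the ITGB4 mean. ZYX and PXN peak at 6 h, ACTR3, CAPZA1 and ENAH are low at 1 h and higher at 6 h, and CALD1 on 212077_at is lower on the 6 HGF arrays than on the other 4. The panels have their own vertical ranges.

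The other 6 scaffold genes had no call in the comparisons made. Talin 1 (TLN1), which links integrins to actin, read 8.77 and 8.82 without HGF, 9.13 and 9.07 after 1 h, 9.14 and 8.97 after 6 h, and 9.21 and 9.00 after 24 h. All 6 HGF arrays lay above the untreated and ITGB4 arrays, but the differences of 0.31, 0.26 and 0.31 did not pass (limma adjusted p = 0.154, 0.231 and 0.408). Vinculin (VCL), which strengthens the talin to actin link, was 10.55 and 10.51 untreated and 10.11 and 10.36 after 24 h, a difference of -0.29 that did not pass (limma adjusted p = 0.437). PTK2, the focal adhesion kinase FAK, differed by -0.31 at 6 h on 208820_at (95% interval -0.58 to -0.03, limma adjusted p = 0.166), and ILK, the integrin-linked pseudokinase, by -0.26 (-0.57 to 0.04, limma adjusted p = 0.283). The scaffolds did not move as a block at 6 h: the median over their 13 probe sets was 0.01, with a range of -0.31 to 0.99. The kindlin gene FERMT2 had differences of -0.48 at 1 h and -0.36 at 24 h on 209210_s_at, neither of which passed (limma adjusted p = 0.0784 and 0.408).

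Beta-actin (ACTB) lay near the top of the scale. Probe set 200801_x_at read 13.75 and 13.79 in untreated cells, 13.84 and 14.00 after 1 h, 14.09 and 13.97 after 6 h, 13.67 and 13.88 after 24 h, with 13.94 and 13.94 in ITGB4 cells. The groups overlapped in part, and the 6 h difference of 0.26 (95% interval -0.01 to 0.53) did not pass (limma adjusted p = 0.231). Among the crosslinkers, ACTN1, which bundles stress fiber actin, was 11.15 and 11.36 untreated, 11.24 and 11.31 after 1 h, 11.55 and 11.73 after 6 h, 10.98 and 11.31 after 24 h, with 11.48 and 11.42 in ITGB4 cells on 208637_x_at. The highest arrays were those of 6 h, and the lowest was HGF 24 h replicate 1. The difference from 6 h to 24 h was -0.49 (95% interval -0.81 to -0.18, SE 0.14, limma adjusted p = 0.0327) and was called on this 1 of 3 kept probe sets, with -0.37 and -0.42 on the others (limma adjusted p = 0.0641 and 0.0796). Without HGF 24 h replicate 1 it was -0.33 (limma adjusted p = 0.189), and the call was also lost without either HGF 6 h array. ACTN4, the other nonmuscle alpha-actinin, was not called, with values between 9.83 and 10.22.

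Tropomyosins lie along actin filaments and set which myosins and severing factors reach them. TPM4 was 10.44 and 10.54 in untreated cells, 10.19 and 10.54 after 1 h, 10.84 and 10.81 after 6 h, 10.46 and 10.43 after 24 h, with 10.66 and 10.49 in ITGB4 cells on 209344_at. The 6 h arrays lay above the others, and the 1 h arrays were the farthest apart. The rise from 1 h to 6 h was 0.46 (95% interval 0.16 to 0.75, SE 0.14, limma adjusted p = 0.0414), with 0.44 on 212481_s_at, which did not pass (limma adjusted p = 0.0705). Leaving out HGF 1 h replicate 1 lowered it to 0.28, and the call was lost without that array, either untreated or either HGF 6 h array. It was lost as well without the filter, with the 2 compared groups fitted alone and with the spread not moderated. TPM1 was spread most in the ITGB4 group, at 9.41 and 8.93 on 210987_x_at and 8.25 and 7.33 on 210986_s_at, against 8.75 and 8.68, and 7.55 and 7.52, in untreated cells. It was lowest at 24 h, at 8.30 and 8.43 on the first probe set and 6.71 and 7.16 on the second. Over the 5 tropomyosin probe sets, the differences from 6 h to 24 h ran from -0.68 to -0.36, and none passed (lowest limma adjusted p = 0.0657).

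Myosin II supplies the contractile force, and its chains had no call in the 6 comparisons. MYH9, the nonmuscle heavy chain IIA, was 8.79 and 8.77 in untreated cells, 9.11 and 9.20 after 1 h, 9.05 and 9.13 after 6 h, 8.74 and 9.01 after 24 h, with 8.84 and 8.92 in ITGB4 cells. The 1 h and 6 h arrays lay above the rest, with differences from untreated of 0.38 and 0.31 that did not pass (limma adjusted p = 0.0945 and 0.16). MYH10, the heavy chain IIB, was 7.54 and 7.58 in untreated cells on 213067_at and 6.91 and 6.79 in ITGB4 cells, a difference that did not pass (limma adjusted p = 0.221). The light chain MYL9 stayed between 6.31 and 7.13, under the filter, and TAGLN, an actin binder known from smooth muscle, between 5.23 and 5.96. TPM2 (5.35 to 6.61) and WASL (6.00 to 7.42), the N-WASP activator of Arp2/3, likewise had no probe set that passed.

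Caldesmon (CALD1) and ENAH carried the 1 h change. Caldesmon, which restrains myosin on actin, was 9.35 and 9.41 in untreated cells on 212077_at, 8.61 and 8.40 after 1 h, 8.85 and 8.82 after 6 h, 8.91 and 8.60 after 24 h, with 9.75 and 9.10 in ITGB4 cells. All 6 HGF arrays lay below the untreated and ITGB4 arrays. The difference at 1 h was -0.87 (95% interval -1.29 to -0.45, SE 0.19, 1.83-fold, limma adjusted p = 0.0303), while -0.55 at 6 h and -0.62 at 24 h did not pass (limma adjusted p = 0.114 and 0.361). The other 3 of its 4 kept probe sets were not called at 1 h, and differed by -0.58, -0.38 and -0.25 (limma adjusted p = 0.0658, 0.0961 and 0.203). ENAH, the Ena/VASP protein that lengthens filaments at the leading edge, was 7.64 and 7.85 untreated, 6.91 and 6.92 after 1 h, 7.58 and 7.67 after 6 h, 7.29 and 7.32 after 24 h, with 8.27 and 7.61 in ITGB4 cells. Both 1 h arrays were the lowest of the 10. The 1 h difference was -0.83 (95% interval -1.23 to -0.42, SE 0.18, limma adjusted p = 0.0307), and the rise from 1 h to 6 h was 0.71 (limma adjusted p = 0.024). Since the 1 h values lie below 7.3, where background weighs more, their sizes are inexact. Both 1 h calls were lost without either untreated, either HGF 1 h or either HGF 6 h array (limma adjusted p = 0.0541 to 0.201), and the ENAH rise without either HGF 1 h or either HGF 6 h array.

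Among the capping and branching genes, CAPZA1 and 1 of the 3 probe sets of ACTR3 were lower at 1 h and at 24 h than at 6 h. CAPZA1, a subunit of capping protein, was 9.42 and 9.43 untreated, 8.95 and 9.00 after 1 h, 9.67 and 9.61 after 6 h, 9.19 and 9.14 after 24 h, with 9.75 and 9.42 in ITGB4 cells. The time course groups did not overlap. It rose by 0.66 from 1 h to 6 h (95% interval 0.38 to 0.95, SE 0.13, limma adjusted p = 0.00898) and changed by -0.47 from 6 h to 24 h (-0.76 to -0.19, limma adjusted p = 0.0269), while -0.45 at 1 h against untreated did not pass (limma adjusted p = 0.0676). The first of these calls was lost without HGF 1 h replicate 1 or either HGF 6 h array, and the second without any 1 of the HGF 6 h or HGF 24 h arrays. CFL1 (cofilin, which severs old filaments) differed by 0.05 at 6 h (95% interval -0.21 to 0.31) and PFN1 (profilin, which loads subunits for growth) by 0.15 (-0.14 to 0.43), and neither passed (limma adjusted p = 0.874 and 0.556).

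ACTR3, the Arp3 subunit of Arp2/3, was 9.30 and 9.36 untreated on 213102_at, 8.83 and 8.86 after 1 h, 9.58 and 9.75 after 6 h, 9.01 and 8.82 after 24 h, with 9.82 and 9.63 in ITGB4 cells. The 1 h and 24 h arrays lay below untreated cells, and the 6 h and ITGB4 arrays above. The rise from 1 h to 6 h was 0.81 (95% interval 0.53 to 1.10, SE 0.13, 1.76-fold, limma adjusted p = 0.00442) and the change from 6 h to 24 h was -0.75 (-1.03 to -0.47, limma adjusted p = 0.00389). Against untreated, -0.48 at 1 h missed the threshold (limma adjusted p = 0.0516). Of the other probe sets, 200996_at rose by 0.50 from 1 h to 6 h (limma adjusted p = 0.0219), and 213101_s_at differed by 0.45 (limma adjusted p = 0.0593). From 6 h to 24 h these 2 differed by -0.31 and -0.23, which did not pass (limma adjusted p = 0.11 and 0.297), and the arrays of 213101_s_at overlapped. Both calls on 213102_at were lost without HGF 6 h replicate 2 (limma adjusted p = 0.0566 and 0.0516), and that on 200996_at without HGF 1 h replicate 1 or either HGF 6 h array. The other 4 subunit genes that passed the filter (ARPC1B, ARPC2, ARPC3 and ARPC5) had no call. ARPC2 differed by 0.09 at 6 h on 208679_s_at (95% interval -0.21 to 0.38, limma adjusted p = 0.765).

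**Figure D3:**
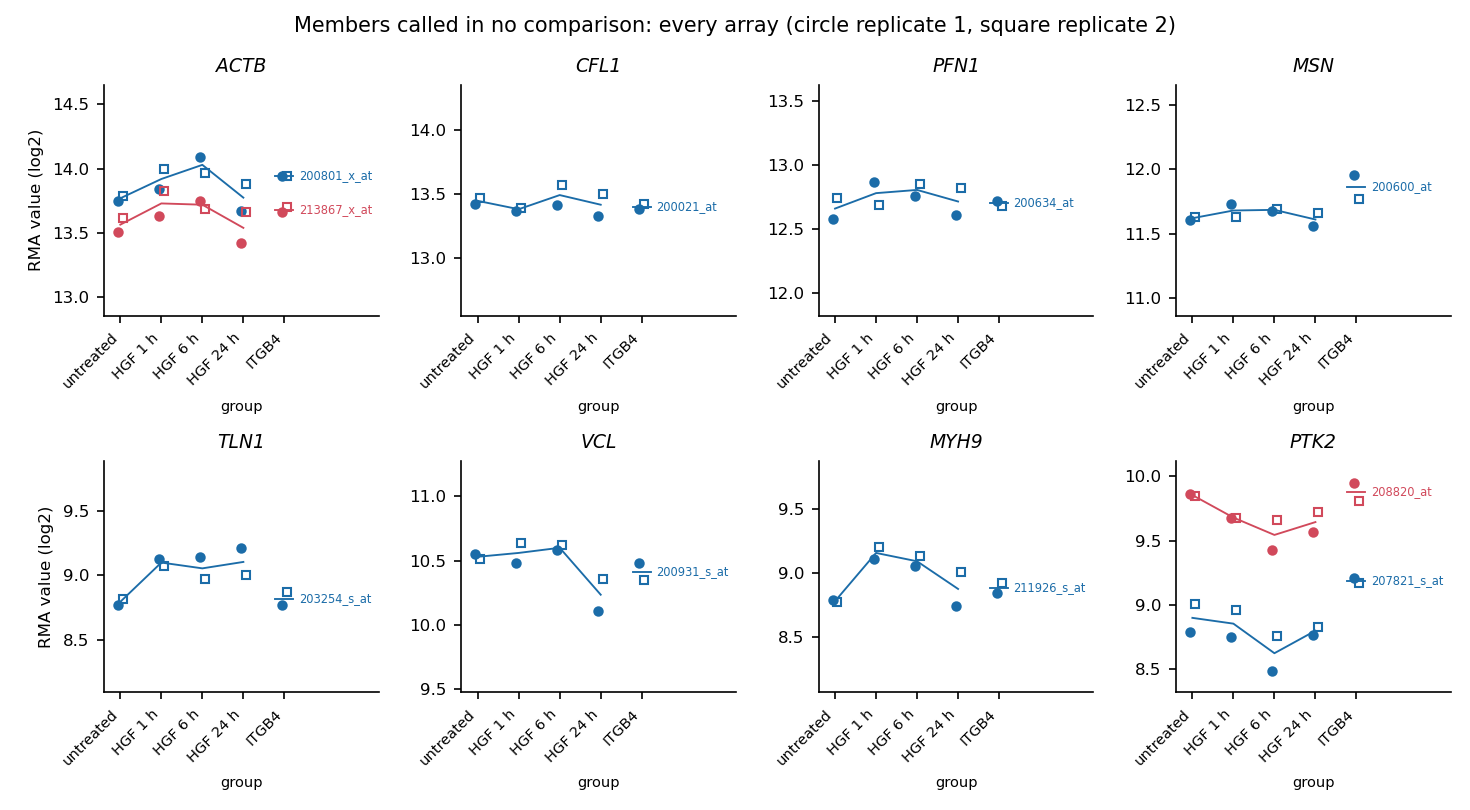
RMA values (log2, vertical axis) on each of the 10 arrays by group (horizontal axis) for 8 member genes that were called in no comparison, with a line through the group means of the time course and a bar at the ITGB4 mean. Each panel spans 1.8 log2 units. The TLN1 values of the HGF arrays lie above those of untreated cells, and ACTB and CFL1 stay near the top of the scale.

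VASP, a filament elongator at adhesions, and DIAPH1, a formin, had no call, with differences at 6 h of 0.06 (95% interval -0.28 to 0.40) and 0.34 (-0.13 to 0.81) on the probe sets with the highest mean (limma adjusted p = 0.885 and 0.388). DIAPH1 read 8.35 and 8.84 without HGF, against 8.74 and 9.13 after 6 h, on 209190_s_at, so the groups overlapped. Ezrin (EZR) and moesin (MSN) tie actin to the membrane. EZR was 8.55 and 8.60 untreated and 8.81 and 8.93 after 6 h on 208622_s_at, a difference of 0.29 (-0.02 to 0.60) that did not pass (limma adjusted p = 0.254). MSN was between 11.56 and 11.96 on the 10 arrays and had no call.

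At 24 h of HGF, limma called 0 of the 62 member probe sets and 0 of all 10176 (0%). At an unadjusted p under 0.05 there were 13 member probe sets (21%) and 1134 of all (11.1%), and the lowest adjusted p among members was 0.361. The count was 0 under each other setting tried. The largest differences each way by gene were those of CALD1 (-0.62) and TPM1 (-0.60), and of TLN1 (0.31) and TAGLN2 (0.28, on 210978_s_at). TAGLN2, a transgelin found outside muscle, was 10.42 and 10.48 untreated and 10.67 and 10.80 after 24 h on that probe set. Its differences there were 0.30 at 1 h, 0.19 at 6 h and 0.26 in ITGB4 cells, and none passed. On 200916_at, its probe set with the highest mean, the 24 h difference was 0.12 and the arrays overlapped. Replicate 1 was lower than replicate 2 for 75.8% of the member probe sets at 24 h (61% of all), and for 72.6% in untreated cells (54.4% of all). The median member lay at -0.14 from the untreated mean on HGF 24 h replicate 1 and at 0.02 on replicate 2. The median difference at 24 h was -0.065 with both arrays, 0.022 and -0.136 when the first or the second HGF 24 h array was left out, and -0.118 and -0.006 without untreated replicate 1 and 2, so its sign rests on 1 array. The ACTB control probe sets, whose 3' minus 5' difference tells of RNA integrity, gave -0.09 on HGF 24 h replicate 1 against -0.57 to -0.27 on the other 9 arrays, and the part of this in the member values was not tested.

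In ITGB4 cells, limma called 0 of the 62 member probe sets and 5 of all (0.0491%). The count was 0 under each other setting tried. At an unadjusted p under 0.05 there were 11 member probe sets (17.7%) and 618 of all (6.07%), with 0.221 as the lowest adjusted p among members. Only here and at 24 h against untreated did the member share at this level exceed that of all. The median member difference was 0.122, against -0.001 over all probe sets, and the median member lay at 0.17 and 0.09 on the 2 arrays. The median difference was 0.074 without untreated replicate 1. The ACTB 3' minus 5' difference was -0.45 and -0.57 on these arrays and -0.30 and -0.34 on the untreated ones, and its part in the shift was not tested. The largest differences were those of MYH10 on 213067_at (-0.71, 95% interval -1.05 to -0.37, SE 0.16, limma adjusted p = 0.221) and FERMT2 on 214212_x_at (-0.36, limma adjusted p = 0.64), and of TPM1 on 210987_x_at (0.45, limma adjusted p = 0.663) and ACTR3 on 213102_at (0.39, limma adjusted p = 0.585). Both ITGB4 arrays lay apart from both untreated arrays for each of these 4. Since the 4 were picked as the largest differences, this separation adds no support. The second MYH10 probe set, 212372_at, read 9.99 and 9.90 in ITGB4 cells and 9.68 and 10.10 in untreated cells, so the probe sets of this gene disagree. The ITGB4 replicates differed more among the members than those of any other group (SD of the replicate difference 0.234, against 0.147 to 0.204). The same held over all kept probe sets (0.281, against 0.179 to 0.277). Among the members, CALD1 was at 9.75 and 9.10 and ENAH at 8.27 and 7.61.

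**Figure D4:**
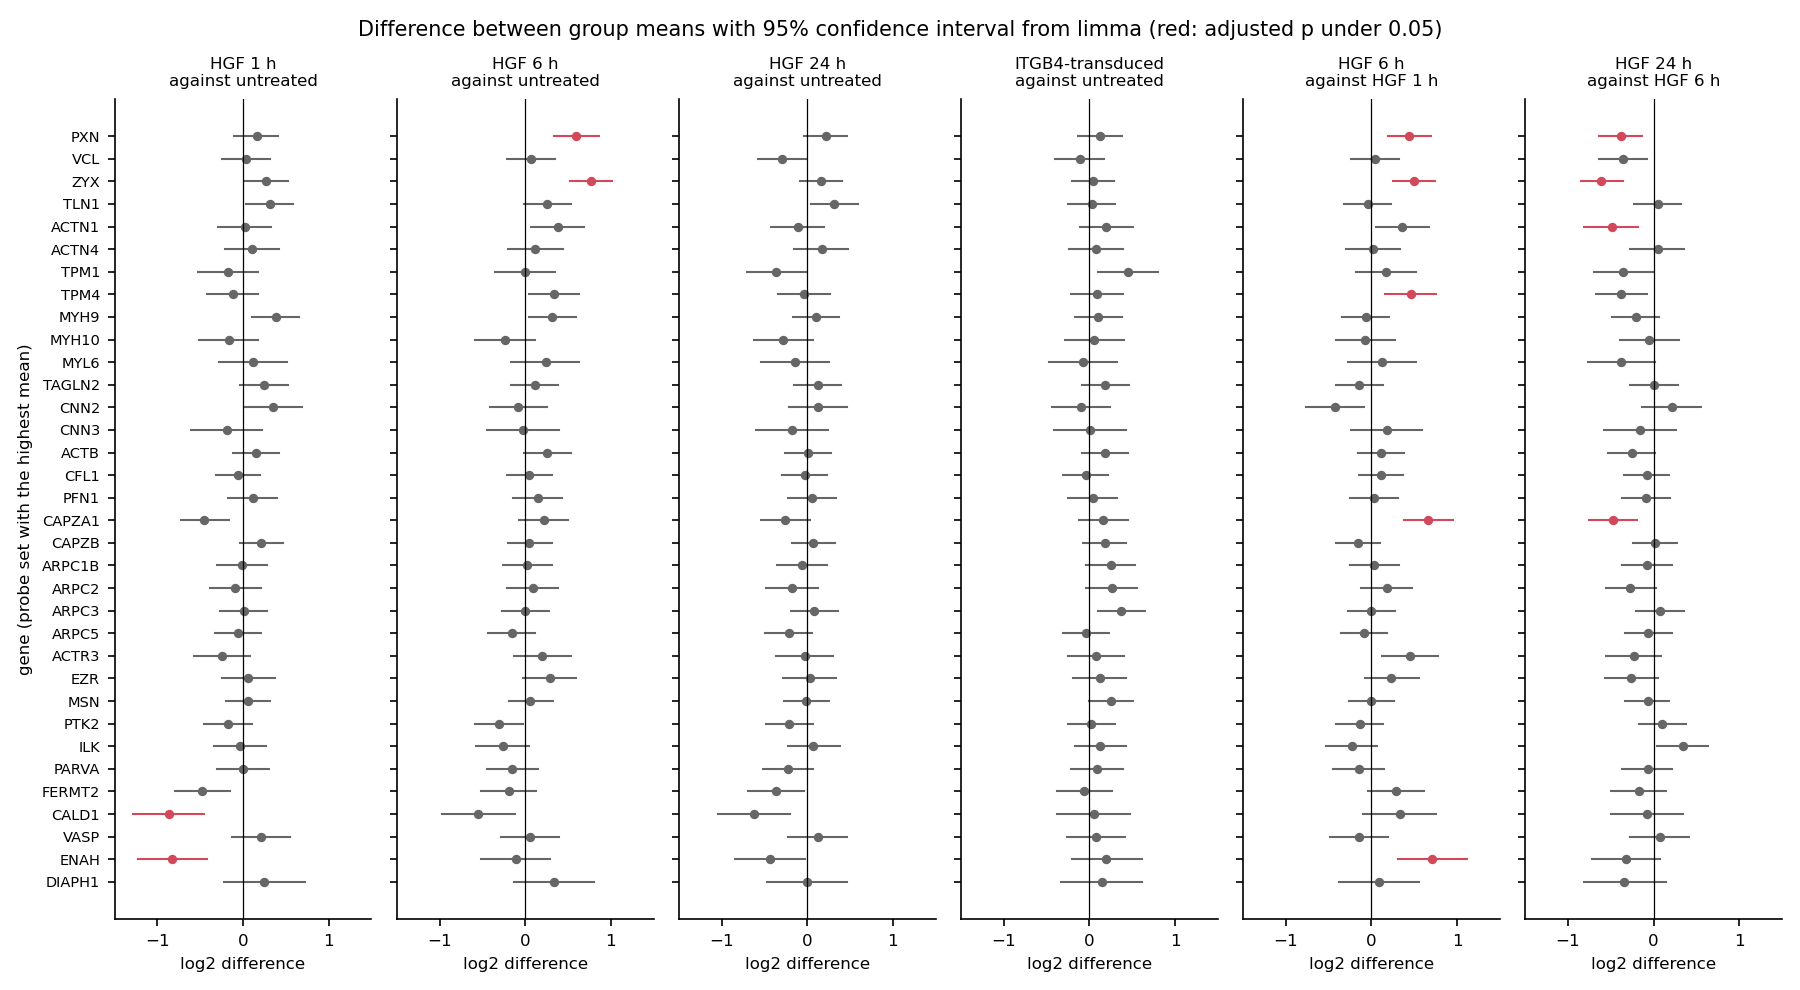
Log2 difference with its 95% interval from limma (horizontal axis) for the kept probe set with the highest mean for each of the 34 kept genes (vertical axis), in the 6 comparisons, with those called drawn in red. Red intervals lie above 0 for PXN and ZYX at 6 h and below 0 for CALD1 and ENAH at 1 h, and no interval is red in the 24 h and ITGB4 panels.

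Regulators of actin and other actin and adhesion genes were counted beside the members. Of the regulators (signalling proteins, kinases and effectors that act on actin, and SRF with its cofactors), 33 of 35 genes on the array passed the filter, with 53 probe sets. At 1 h 1 was higher, RHOB (1.03, limma adjusted p = 0.0226), and 3 were lower, the largest ECT2 (-1.02, limma adjusted p = 0.0271) and ROCK1 (-0.80, limma adjusted p = 0.0474, on 1 of 2 kept probe sets). At 6 h 2 were higher and 0 lower: ARHGDIA (0.74, limma adjusted p = 0.0247, 1 of 4), and SRF (0.59, limma adjusted p = 0.0249, 1 of 2). At 24 h 0 were called, and in ITGB4 cells 1, IQGAP1 (1.02, limma adjusted p = 0.0153, 1 of 3), an actin scaffold. From 1 h to 6 h 9 were higher (17%, against 11.9% of all probe sets) and 1 lower (1.89%, against 6.4%). From 6 h to 24 h 2 were higher (3.77%, against 6.95%) and 12 lower (22.6%, against 12.5%). The 12 held all 4 kept probe sets of ARHGDIA and both of SRF, and the 2 higher were both of SSH3. A share of probe sets is thus not a share of genes. The lower share at 1 h was 5.66% (against 5.09%) and the higher share at 6 h 3.77% (against 3.88%). The higher share at 1 h was 1.89% (against 0.58%) and the share called in ITGB4 cells 1.89% (against 0.0491%), each a single probe set.

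The 43 of 64 other actin and adhesion genes that passed the filter had 71 probe sets. Here too a gene can give several of the probe sets counted. At 1 h 0 were higher and 7 lower (9.86%, against 5.09% of all probe sets), the largest being NCKAP1 (-0.73, limma adjusted p = 0.0153) and radixin, RDX (-0.70, limma adjusted p = 0.0408), a relative of ezrin. At 6 h 3 were higher (4.23%, against 3.88%), with ARPC5L (0.76, limma adjusted p = 0.00936), an Arp2/3 subunit, and the formin FHOD1 (0.67, limma adjusted p = 0.0337) the largest, and 1 was lower (1.41%, against 2.33%), ABI1 (-0.55, limma adjusted p = 0.0412). At 24 h and in ITGB4 cells 0 were called. From 1 h to 6 h 7 were higher (9.86%, against 11.9%) and 6 lower (8.45%, against 6.4%), and from 6 h to 24 h 5 were higher (7.04%, against 6.95%) and 9 lower (12.7%, against 12.5%). The median difference at 6 h against untreated was 0.042 for the regulators, -0.056 for these genes and 0.098 for the members.

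Markers of other cell types were read beside these counts. The 3 kept smooth muscle probe sets, those of SMTN and MYLK, averaged 7.75 and 7.94 on the untreated arrays, 8.59 and 8.61 at 6 h, and 7.84 and 8.09 at 24 h. Of these 3, 1 was called higher at 1 h (33.3%, against 0.58% of all probe sets) and 2 at 6 h (66.7%, against 3.88%). From 1 h to 6 h 1 was called higher (33.3%, against 11.9%). All 3 were called lower from 6 h to 24 h (100%, against 12.5%). Against untreated, 0 were called at 24 h and in ITGB4 cells. The 3 belong to 2 genes, and MYLK is also among the regulators. The defining genes ACTA2, ACTG2, MYH11, CNN1 and DES had no probe set that passed the filter. The epithelial list had 1 of 4 probe sets higher from 1 h to 6 h (25%, against 11.9% of all). From 6 h to 24 h 2 of the 4 were lower (50%, against 12.5%). The fibroblast list had 1 of 7 lower in each of these 2 comparisons (14.3%, against 6.4% and 12.5% of all). In either list 0 were called against untreated. The melanocyte list had 21 probe sets of 15 genes. Of the 21, 2 were lower at 1 h (9.52%, against 5.09% of all) and 4 at 6 h (19%, against 2.33%). From 6 h to 24 h 1 was higher (4.76%, against 6.95%). The mean level of this list moved from 10.57 and 10.75 in untreated cells to 10.41 and 10.52 at 6 h, and was 10.43 and 10.53 at 24 h. What part these markers have in the member values was not tested.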

How the data were processed

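RNA of 10 MDA-MB-435 cultures, 5 groups of 2, was hybridised to Affymetrix hgu133a arrays. The authors summarised and normalised the probe intensities with RMA after a quality check with the affy package (versions and genome build not given in the sources used here), and the deposited values are log2 RMA values per probe set, between 2.19 and 14.28 with array medians of 6.81 to 6.88. RMA quantile normalisation sets the arrays to 1 distribution, so a shift common to most genes would not be seen. No presence calls were used; in place of the study's filter on them, the 22283 probe sets without their 68 controls were kept where the second-highest value was at least 7.3, which left 10176. Probe sets were named from the platform annotation: 19065 had a single symbol, 1043 several and 2107 none. A probe set level cannot be set against that of another.

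A mean per group was fitted over the 10 arrays with limma 3.58.1 in R 4.3.3 (5 residual degrees of freedom), and p-values were adjusted by the Benjamini-Hochberg method over the kept probe sets of each comparison, all two-sided. The number of arrays limits the precision: an exact test of 2 against 2 cannot go below p = 0.333. The text names the members called in each comparison, the 2 largest differences each way where none was called, and the best-known members of each role by the probe set with the highest mean. Of the other actin gene lists it names at most 2 called genes each way, and FERMT2 at 1 h, ACTN4, CAPZA1 and ACTR3 at 1 h, MSN and the marker genes were named after their values were seen. Members, lists and tests were chosen with earlier results of these data known. Alternatives were other filters, scalings and estimates of the spread, the replicate number as a block, the mean over probe sets of a gene, and leaving out each array. Promoter letters come from RefSeq.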

Additional observations from a re-analysis of the deposited data

Results flagged for a closer look

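The values of 6 member genes differed between 1 h and 6 h of HGF, by the direct limma test of the 2 time points. Their 9 called probe sets were 14.5% of the members, near the 11.9% of all probe sets called higher. The log2 differences, 6 h minus 1 h, were 0.70 and 0.50 for ZYX and 0.56 and 0.44 for PXN. They were 0.81 and 0.50 for ACTR3 (2 of 3 probe sets) and 0.71 for ENAH. Those of CAPZA1 and TPM4 (1 of 2 probe sets) were 0.66 and 0.46. The limma adjusted p ran from 0.00442 to 0.0414.

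Those of 5 member genes also differed between 6 h and 24 h of HGF. Their 7 called probe sets were 11.3% of the members, near the 12.5% of all probe sets called lower. The log2 differences, 24 h minus 6 h, were -0.89 and -0.61 for ZYX and -0.60 and -0.38 for PXN. They were -0.75 for ACTR3 (1 of 3 probe sets), -0.49 for ACTN1 (1 of 3 probe sets) and -0.47 for CAPZA1. The limma adjusted p ran from 0.00192 to 0.042. ZYX, PXN, ACTR3 and CAPZA1 thus appear in both comparisons, which share the 6 h arrays.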

How the results depend on the processing

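No called difference changed sign under any alternative tried. The calls were 2 at 1 h, 4 at 6 h, 9 from 1 h to 6 h and 7 from 6 h to 24 h, and 0 at 24 h and in ITGB4 cells, which stayed 0 throughout. At 1 h the count was 4 with cyclic loess and 4 with the replicate number as a block. With the spread pooled over groups without moderation the counts were 0, 2, 3 and 4 in the order above. The calls kept then were those of ZYX, of ACTR3 on 213102_at, and of PXN on 211823_s_at from 6 h to 24 h. Leaving out 1 array at a time gave 0 to 5 at 1 h, 0 to 5 at 6 h, 0 to 10 from 1 h to 6 h and 2 to 10 from 6 h to 24 h. At 1 h the count was 0 without either untreated array, HGF 1 h replicate 1 or either HGF 6 h array, 1 without HGF 1 h replicate 2 and 5 without either ITGB4 array. At 6 h it was 1 without either untreated array or the first HGF 6 h array, and 0 without the second. From 1 h to 6 h leaving out HGF 1 h replicate 1 or HGF 6 h replicate 1 gave 1 and leaving out HGF 6 h replicate 2 gave 0. From 6 h to 24 h, leaving out HGF 6 h replicates 1 and 2 gave 2 and 3, and leaving out HGF 24 h replicate 1 gave 4. A group left with 1 array is assumed to vary like the others. The median member difference at 24 h was 0.022 and -0.136 without HGF 24 h replicate 1 and 2, and that from 6 h to 24 h (-0.177) was -0.101 without the filter and -0.092 without HGF 24 h replicate 1. The cause of these shifts was not tested. The replicate differences of the groups correlated at -0.14 to 0.46 over the 10 pairs of groups, over 0.1 in 8 of them and in all 4 with untreated cells. Since this was not so in every pair and no label ties the numbers to a shared source, they were not taken to pair the samples. The block gave 4, 4, 10 and 8 member calls in the order above, and added CALD1 201616_s_at and ACTR3 213102_at (lower at 1 h), CNN2 201605_x_at (lower from 1 h to 6 h) and ACTN1 211160_x_at (lower from 6 h to 24 h). With the mean over the probe sets of each gene, the genes called were those called by probe set in each comparison. Over the named results and the alternatives, 88 values lost their call and 505 kept their side of the threshold. The 505 include the named results at 24 h and in ITGB4 cells, which were not called and stayed so.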
